A study of Mus musculus with 10 samples.

Results

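Genes of heme and iron handling and the adult globins were followed in calf muscle of mdx mice. The genes were 10 listed by name, and every probe set of the array whose annotation names exactly 1 gene, equal to a listed one, was taken. This gave 13 probe sets of 8 genes, out of the 8252 genes named by single-gene probe sets and 12488 probe sets in all: Hba-a1, Hbb-b2, Alas2, Hmox1, Slc11a1 and Cp with 1 each, Fth1 with 2 and Tfrc with 5, of which 3 are control probe sets that the maker placed on the array. Ftl1 and Trf had no probe set of their own and were skipped. The samples were 5 arrays of gastrocnemius, the large calf muscle, from male mdx mice aged 16 weeks and 5 arrays of the same muscle from normal male mice of that age. Mdx mice carry a mutation in the dystrophin gene in every cell. Their muscle fibres break down and regrow repeatedly, with macrophages entering the tissue. The labels name neither the strain of the normal mice nor separate animals, so p-values measure the spread between these arrays, which may in part be technical.

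Heme is the iron-containing group of hemoglobin, myoglobin and the cytochromes. It is built from glycine and succinyl-CoA, starting with an aminolevulinate synthase (Alas1 in most tissues, Alas2 in red cell precursors), and heme oxygenase opens it again and frees its iron. Iron reaches most cells bound to plasma transferrin through the transferrin receptor, is stored in shells of ferritin heavy and light chains, and is moved out of the phagosome of macrophages by Slc11a1. Macrophages that clear red cells and dead fibres thus handle large amounts of both. Globin transcripts in a muscle piece can come from young red cells in its blood.

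Each value is a probe set intensity in linear units. Changes are mdx minus control on the scale log2(intensity + 156.8), where 156.8 is a noise level estimated from the values below 0, and were tested with limma over 7612 probe sets with Benjamini-Hochberg adjustment and a threshold of 0.05. Dmd, the mutated dystrophin gene, averaged 188 ± 33.7 in mdx and 797 ± 147 in control (SD, n = 5 each). Arrays correlated at 0.934 to 0.968 within mdx, 0.946 to 0.967 within control and 0.860 to 0.892 between the groups. Of the mdx arrays, replicate 1 stood apart in scale, with a mean (after trimming 2% at each end) of 723 against 801 on the others, and it was the lowest mdx array for 7 of the 10 probe sets that are not array controls. For actin, the 3' control probe set over the 5' one, a sign of RNA quality, stood at 0.952 to 1.08 in mdx and 1.07 to 1.16 in control. These ranges overlapped narrowly. The same ratio for Gapdh overlapped more widely between the groups, at 0.690 to 0.792 in mdx and 0.672 to 0.823 in control. Of 15 tested macrophage markers 14 were higher in mdx, with summed intensities of 72821 to 96943 in mdx and 5725 to 9909 in control, and of 11 tested muscle fibre markers 9 were lower, with sums of 197317 to 268734 in mdx and 254953 to 392163 in control. The part of these differences in the results below was not tested. Fewer cells of a type and less RNA per cell cannot be told apart in such samples. Scaling to the bacterial hybridization controls in place of the deposited scaling moved the median change of all tested probe sets to 0.45, against -0.05 as deposited, and 96.6% of its calls were higher in mdx, against 47.3%. Directions given below hold for the deposited scaling unless another is named.

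The start sites of the adult globins carry the promoter elements by which red cell precursors switch them on, and they are shown here as background. Whether they bear on the globin changes described below was not tested. RefSeq promoter windows were found for 7 of the 10 listed genes. Hmox1, Hbb-b2 and Trf were the others. The Hba-a1 and Hba-a2 windows share an unbroken run of 297 of 300 bases. Each sequence below is the 250 bases before the start site in build GRCm38.p6, for Hba-a1 at chr11:32283422-32283671, plus strand, for Hbb-bs at chr7:103827929-103828178, minus strand, for Hbb-bt at chr7:103813924-103814173, minus strand, and for Alas2 at chrX:150547167-150547416, plus strand. Hbb-bs and Hbb-bt are the adult beta globin genes of the reference strain and are named, with others, on a probe set described below. Capitals mark, on either strand and overlaps included, 4 words: CCAAT, the box read by the factor NF-Y, CACCC, the core of the sites of Klf factors, GATAA, the core of the sites of Gata factors, and TATAA, the box near the start of transcription.
Hba-a1: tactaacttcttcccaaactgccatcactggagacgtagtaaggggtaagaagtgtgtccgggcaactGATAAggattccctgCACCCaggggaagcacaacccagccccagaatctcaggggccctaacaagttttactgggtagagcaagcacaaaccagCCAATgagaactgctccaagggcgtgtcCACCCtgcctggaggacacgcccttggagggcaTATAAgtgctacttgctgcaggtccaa
Hbb-bs: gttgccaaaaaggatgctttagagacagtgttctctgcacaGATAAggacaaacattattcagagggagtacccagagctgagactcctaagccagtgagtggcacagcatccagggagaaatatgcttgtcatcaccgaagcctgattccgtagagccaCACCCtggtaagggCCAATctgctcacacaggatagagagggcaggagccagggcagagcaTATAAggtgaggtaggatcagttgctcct
Hbb-bt: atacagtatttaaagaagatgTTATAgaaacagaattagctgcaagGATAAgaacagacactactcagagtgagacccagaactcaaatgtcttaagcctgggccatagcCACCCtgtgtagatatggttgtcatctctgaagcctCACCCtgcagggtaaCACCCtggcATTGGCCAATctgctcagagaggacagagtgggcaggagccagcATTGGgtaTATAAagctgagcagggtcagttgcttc
Alas2: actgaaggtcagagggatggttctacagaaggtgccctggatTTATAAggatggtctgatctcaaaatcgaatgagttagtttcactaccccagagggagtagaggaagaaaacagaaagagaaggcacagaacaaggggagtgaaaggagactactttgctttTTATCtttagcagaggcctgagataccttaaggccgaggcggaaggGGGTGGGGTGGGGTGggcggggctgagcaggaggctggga
The 3 globin windows each held all 4 of these words, and Alas2 held the Klf core 3 times, the Gata core 1 time, the last word on both strands of a single stretch, and the first not at all. Of all 32851 windows of this length in the table, 33.8% held the first, CCAAT. The share was 52% for the Klf core, 22.6% for the Gata core and 22.8% for the last. For Slc11a1, the member with the largest change, the window at chr1:74374953-74375202, plus strand is shown with capitals on GAGGAA, the core of the box bound by the myeloid factor PU.1, which was present in 23.3% of all windows.
Slc11a1: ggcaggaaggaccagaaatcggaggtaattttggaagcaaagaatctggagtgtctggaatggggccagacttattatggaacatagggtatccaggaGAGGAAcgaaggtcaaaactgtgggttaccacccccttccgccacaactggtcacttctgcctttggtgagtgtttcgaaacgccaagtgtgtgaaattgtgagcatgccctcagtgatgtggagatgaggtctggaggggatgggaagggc
A match says only that these letters stand in the window.

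Of the 10 probe sets that are not array controls, 9 passed the filter on dim probe sets and were tested. Of these, 2 were higher in mdx (Slc11a1 and 1 of Tfrc), 4 were lower (Hba-a1, Hbb-b2 and both of Fth1) and 3 were not called (Hmox1, Alas2 and the other of Tfrc). Over the whole array 33.1% of tested probe sets were called, 15.6% up and 17.5% down. Groups were fully apart for 3 of the 9, Hba-a1, Slc11a1 and 1 of Fth1, against 25.1% of all tested probe sets. The plot of intensities by array shows each of them.

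**Figure D1:**
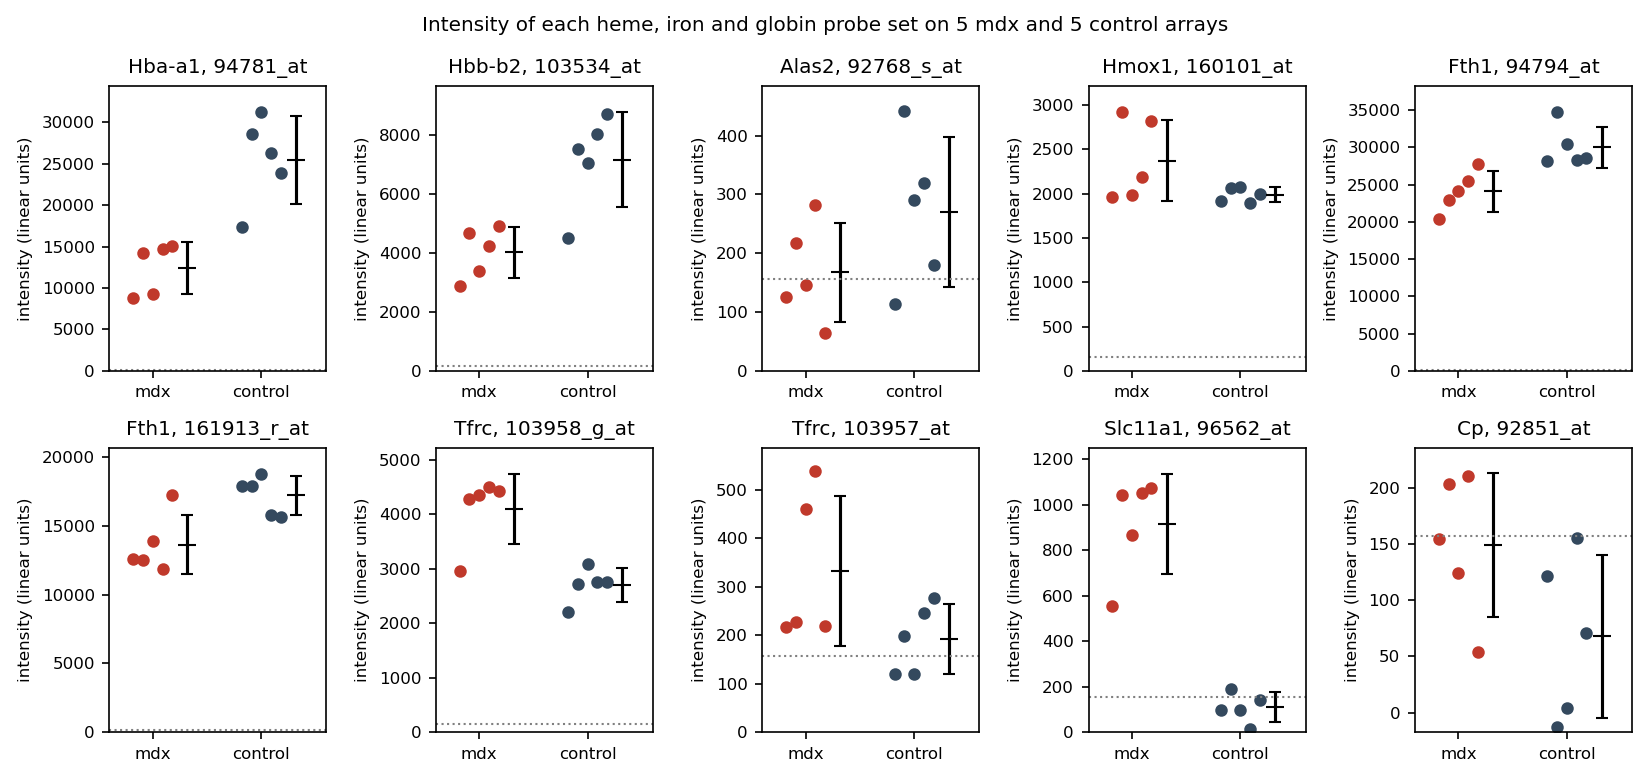
Intensity (linear units, y axis) of the 10 probe sets on 5 mdx arrays (red, left) and 5 control arrays (dark, right), with the mean and SD beside each group in black and the noise level of 156.8 as a dotted line. The 5 mdx arrays of Hba-a1 lie between 8831 and 15034, below all control arrays, and those of Slc11a1 between 553 and 1071, above all control arrays.

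Both globins were lower in mdx muscle under the deposited scaling and after quantile normalization, and not called under scaling to the hybridization controls. Hba-a1 (94781_at), which encodes the adult alpha globin chain, had 8831, 14280, 9288, 14694 and 15034 on the mdx arrays, against 17398, 28603, 31196, 26290 and 23862 on the control arrays. Every mdx array lay below every control array. The mean was 12425 ± 3088 in mdx and 25470 ± 5268 in control (SD, n = 5 each), 2.05-fold lower, at -1.04 on the log2 scale (SE 0.19, limma adjusted p = 0.00112). Hbb-b2 (103534_at), named for an adult beta globin chain, had 2897, 4678, 3399, 4255 and 4931 in mdx, against 4512, 7523, 7050, 8045 and 8734 in control. Here the groups overlapped through control replicate 1, and 3 of 5 mdx arrays lay below every control array. On the log2 scale the change was -0.80 (SE 0.18, limma adjusted p = 0.00481), 1.74-fold lower. Without control replicate 1, the lowest control array of both, the changes were -1.17 for Hba-a1 and -0.95 for Hbb-b2.

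In mdx, replicates 1 and 3 were the lowest and replicate 5 the highest for both Hba-a1 and Hbb-b2. In control, replicate 1 was the lowest for both and for Alas2, but the other control arrays did not rank alike: replicate 3 was the highest for Hba-a1 and the next above the lowest for Hbb-b2, and replicate 5 the reverse. Under scaling to the hybridization controls both lost the call, at -0.40 (limma adjusted p = 0.117) for Hba-a1 and -0.18 (limma adjusted p = 0.495) for Hbb-b2, which is -0.85 and -0.62 relative to the median of all tested probe sets under that scaling. The adult globin genes are near copies of each other, so signal from 1 gene on the probes of another cannot be told apart. Probe sets whose annotation lists several globin genes, and which therefore name none, moved in the same direction. Probe set 162457_f_at, listing both alpha genes, had 1958, 3856, 1956, 3492 and 2985 in mdx, against 3955, 8353, 9366, 7128 and 8441 in control, with the log2 change at -1.33 (SE 0.24, limma adjusted p = 0.00114). It stayed called lower in all 19 alternatives, at -0.72 (limma adjusted p = 0.0392) under scaling to the hybridization controls. Probe set 101869_s_at, listing 4 adult beta genes, averaged 19213 ± 3322 in mdx and 30852 ± 5100 in control (SD, n = 5 each), with the log2 change at -0.68 (SE 0.13, limma adjusted p = 0.00189). Under scaling to the hybridization controls 101869_s_at stood at -0.04 (limma adjusted p = 0.792), which is -0.49 relative to the median there. Neither of these overlapped between the groups. A further probe set listing the same beta genes, 160560_at, was below the noise level on all 10 arrays.

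Alas2, the red cell form of the first enzyme of heme synthesis, was near the noise level and was not called. Its probe set (92768_s_at) had 125, 218, 147, 282 and 64.7 in mdx, against 114, 442, 291, 320 and 180 in control. The groups overlapped, with 3 mdx arrays and 1 control array below the noise level. The log2 change was -0.38 (SE 0.24, limma adjusted p = 0.258), with a 95% interval of -0.91 to 0.15 that holds both no change and a fall as large as that of Hbb-b2.

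Other markers of red cells and their precursors were lower or not called by their brightest tested probe sets. Of 10 tested genes of that list 4 were lower and 0 higher, with a median log2 change of -0.36, against -0.05 over all tested probe sets. The list includes both globins and Alas2. Without these members the median was -0.30 and 2 of 7 were lower, against 17.5% of all tested probe sets, dimmer ones included. These were Bpgm, the enzyme that makes the hemoglobin ligand 2,3-bisphosphoglycerate, with a log2 change of -0.82 (limma adjusted p = 4.5e-05), and the membrane anchor Ank1, at -0.39 (limma adjusted p = 0.00334). Bpgm stood at -0.22 (limma adjusted p = 0.265) under scaling to the hybridization controls, which is -0.66 relative to the median there. Ank1, which muscle also makes, had another probe set higher, at 0.30, and another not called, at -0.21, and the lower one lost its call after quantile normalization, at -0.18, and turned to 0.24 under scaling to the hybridization controls, below the median there. The 5 not called were Klf1, the erythroid transcription factor, at 1792 in mdx and 2275 in control (group means), the water channel Aqp1 at 2112 and 2709, Car2 at 472 and 547, Rhd at 238 and 267, and Rhag at 190 and 142. Of these 5, Rhag alone fell below the noise level on any array, and Aqp1 had another probe set higher, at 0.74. Among the 8 untested genes, the brightest probe sets of Gata1, Tal1, Epb42, Dmtn and Car1 were below the noise level on all 10 arrays, and those of Nfe2, Epor and Slc4a1 on 9, 8 and 7. The summed intensity of the 7 tested genes other than members was 14714 to 17167 in mdx and 20160 to 23156 in control. Ank1 made the largest part of these sums, at 9388 in mdx and 12387 in control (group means), so they mostly follow that 1 probe set.

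The heme oxygenase transcript was not called. Hmox1 (160101_at), the inducible enzyme that breaks heme into biliverdin, carbon monoxide and iron, had 1960, 2924, 1986, 2185 and 2816 in mdx, against 1914, 2059, 2077, 1892 and 1992 in control. The control arrays lay close together, and 3 of 5 mdx arrays, replicates 2, 4 and 5, lay above all of them. Its change was 0.22 on the log2 scale (SE 0.12, limma adjusted p = 0.167, 95% interval -0.03 to 0.47). It reached 0.82 (limma adjusted p = 0.0021) under scaling to the hybridization controls, which is 0.37 relative to the median there. The spread was 462 in mdx and 83.1 in control (SD of the intensity).

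The transferrin receptor was higher by 1 of its probe sets. Tfrc encodes the receptor that carries transferrin-bound iron into cells, and dividing cells make much of it. The brighter probe set (103958_g_at) had 2964, 4275, 4351, 4510 and 4424 in mdx, against 2202, 2724, 3085, 2765 and 2750 in control. Mdx replicates 2 to 5 lay above every control array and replicate 1 among them. The log2 change was 0.57 (SE 0.12, limma adjusted p = 0.00342), 1.48-fold higher. The other tested probe set (103957_at) had 218, 228, 461, 539 and 219 in mdx, against 121, 200, 120, 245 and 278 in control. It was not called (log2 change 0.46, SE 0.22, limma adjusted p = 0.143). Under scaling to the hybridization controls it was called, at 0.83 (limma adjusted p = 0.0109). Relative to the median of all tested probe sets it stood at 0.39 there, against 0.50 as deposited. Replicates 3 and 4 were high in mdx and the other mdx arrays lay within the control range. The array control probe set toward the 3' end of Tfrc showed the same arrays high, with 563, 725, 1643, 1734 and 708 in mdx, against 496, 721, 851, 685 and 755 in control. The control probe sets for its middle and 5' parts were below the noise level on all arrays but mdx replicate 4, at 183 and 238. In a fit with them included, added after the data were seen, the 3 control probe sets (3', 5' and middle) were not called, with log2 changes of 0.42, 0.42 and 0.23 and limma adjusted p of 0.259, 0.113 and 0.486.

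Slc11a1 had the largest change of the members. Its protein, also called Nramp1, pumps iron and manganese out of the phagosome and is made by macrophages and neutrophils. The probe set (96562_at) had 553, 1040, 867, 1049 and 1071 in mdx, against 99.1, 193, 99.2, 16.9 and 144 in control. All 5 mdx arrays lay above all control arrays, and 4 of the 5 control arrays lay below the noise level. The change was 2.01 on the log2 scale (SE 0.21, limma adjusted p = 1.4e-05), 4.04-fold higher on the offset scale, which understates a change from so low a level. It ranged from 1.53 to 2.44 over the other settings tried, all called. Of 7 tested neutrophil markers 0 were called by limma and 1 had an unadjusted p under 0.05, with a median log2 change of -0.01 and summed intensities of 2519 to 4425 in mdx and 2702 to 3884 in control.

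The ferritin heavy chain was slightly lower as deposited. Fth1 encodes the subunit that oxidizes iron as it enters the ferritin shell. Its probe set 94794_at had 20423, 22906, 24082, 25445 and 27709 in mdx, against 28176, 34675, 30383, 28258 and 28612 in control. All mdx arrays lay below all control arrays, by a narrow gap. The log2 change was -0.32 (SE 0.09, limma adjusted p = 0.021), but 0.15 after quantile normalization and 0.32 under scaling to the hybridization controls, neither called. The probe set 161913_r_at had 12583, 12518, 13870, 11870 and 17227 in mdx, against 17879, 17877, 18748, 15786 and 15657 in control, with mdx replicate 5 inside the control range. Its log2 change was -0.34 (SE 0.10, limma adjusted p = 0.023), -0.09 after quantile normalization and 0.29 under scaling to the hybridization controls, neither of these called. With the replicate number as a block neither passed, at adjusted p = 0.0577 and 0.0551 by limma, and leaving out control replicate 2 or mdx replicate 2 also ended both calls.

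A probe set that lists the ferritin light chain gene together with a pseudogene, and so names no single gene, moved the other way. Probe set 99872_s_at had 15173, 18224, 18540, 18727 and 25303 in mdx, against 10083, 7800, 8426, 7475 and 9136 in control. The groups did not overlap. Its change was 1.13 on the log2 scale (SE 0.13, limma adjusted p = 2.5e-05), 2.20-fold higher, and ranged from 1.03 to 1.76 over the other settings. Cp, ceruloplasmin, the copper-bearing oxidase that loads iron onto transferrin, had 154, 203, 124, 210 and 54.1 in mdx, against 121, -12.6, 4.18, 155 and 71.0 in control. It lay below the noise level on 3 mdx arrays and all 5 control arrays, failed the filter and was not tested, and with no filter it was not called (log2 change 0.46, limma adjusted p = 0.25).

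**Figure D2:**
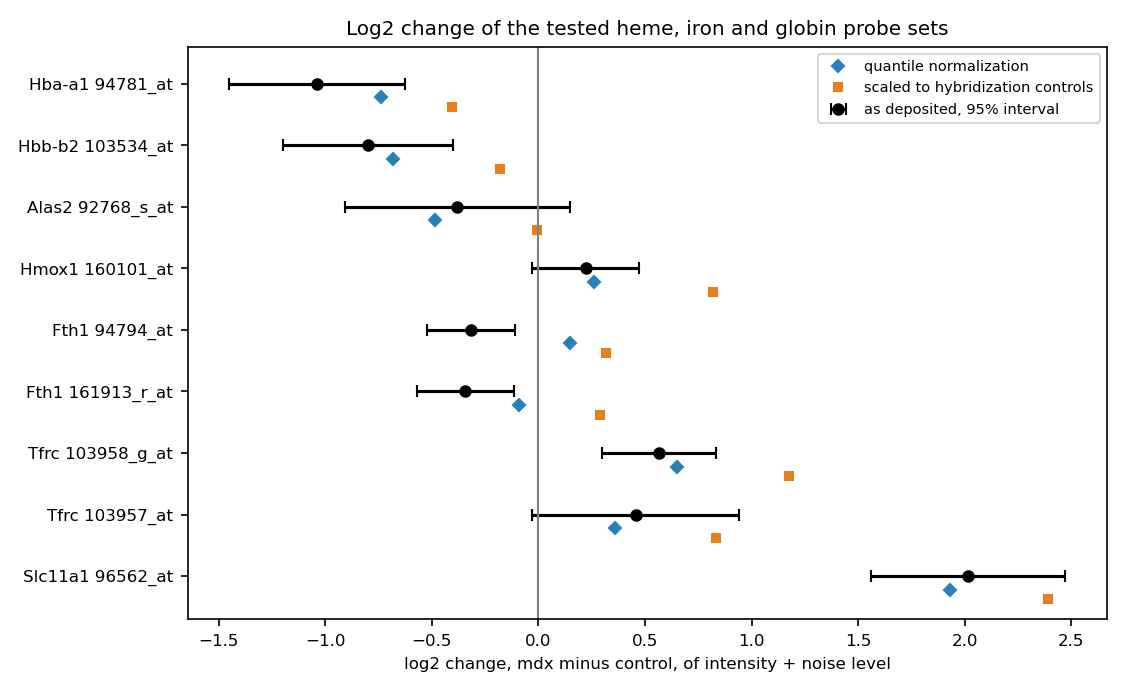
Log2 change, mdx minus control (x axis, log2 units of intensity + 156.8), of the 9 tested probe sets (rows), as deposited with the 95% interval (black), after quantile normalization (blue diamonds) and scaled to the hybridization controls (orange squares). Slc11a1 lies at 2.01, 1.93 and 2.39 under the 3 scalings, and 94794_at of Fth1 lies at -0.32, 0.15 and 0.32.

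Set side by side over the arrays, the globins and Slc11a1, the member with the largest change, moved in opposite directions between the groups. The other iron and heme members did not all follow Slc11a1. The brighter Tfrc probe set was called higher, but the dimmer one and Hmox1 were not called. Both Fth1 probe sets were called lower, as the globins were. Relative to its control mean Hba-a1 was lower on all 5 mdx arrays and Slc11a1 higher on all 5. Within mdx the 2 ranked the arrays in the same order as deposited. All probe sets of an array share its scale, and a relation between the 2 was not tested. Replicate 1 was the lowest and replicate 5 the highest mdx array for both, and also for 94794_at of Fth1. Brought to the average trimmed mean of all arrays, replicate 1 stood at 9685 for Hba-a1 and 606 for Slc11a1. That was still the lowest mdx array for Slc11a1 and the next above replicate 3 for Hba-a1. With all arrays at equal trimmed means, the log2 changes were -1.01 for Hba-a1, -0.77 for Hbb-b2 and 2.03 for Slc11a1.

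**Figure D3:**
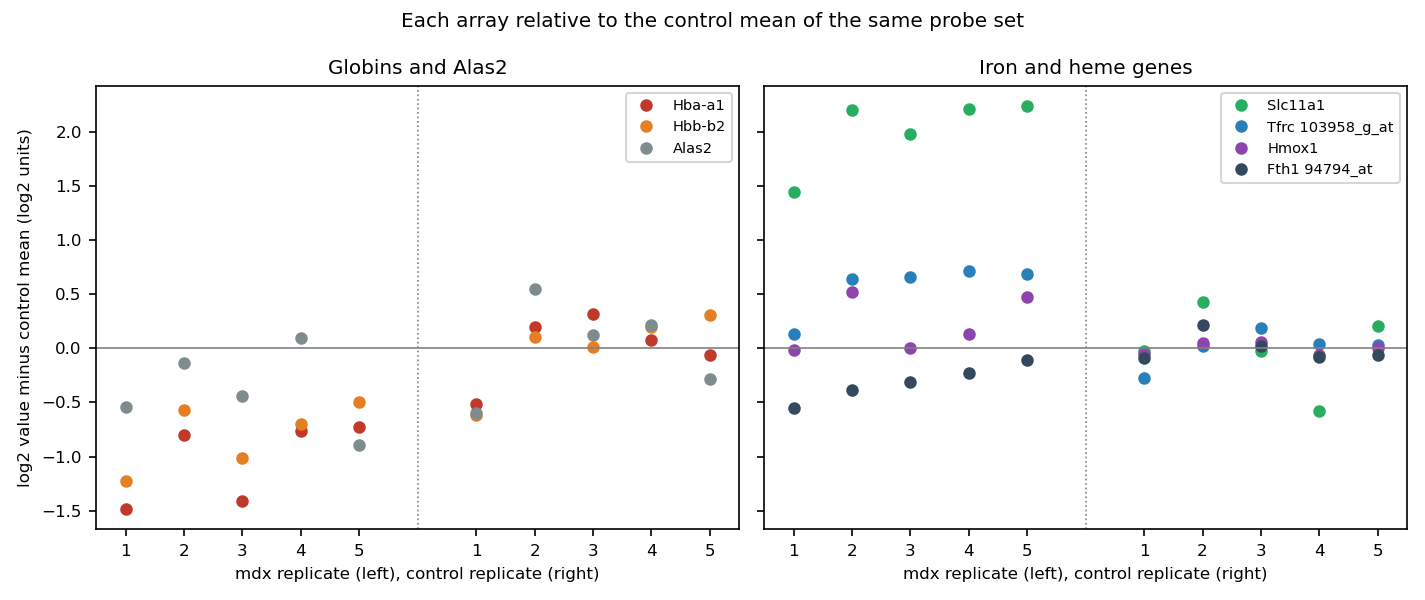
Log2 value of each array minus the control mean of the same probe set (y axis, log2 units), for mdx replicates 1 to 5 and then control replicates 1 to 5 (x axis), with globins and Alas2 on the left and iron and heme genes on the right. The points of Hba-a1 lie below the control mean on all 5 mdx arrays and those of Slc11a1 above it, with mdx replicate 1 the lowest of its group in both.

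The wider pathway was read from 7 lists of heme and iron genes, with each gene counted by its brightest tested probe set. Of 39 tested genes 7 were higher and 11 lower, and without the members 5 of 34 were higher and 10 lower, with a median log2 change of -0.14. Of all tested probe sets 15.6% were higher and 17.5% lower. The share of higher genes (14.7%) was near that of the array and the share of lower ones (29.4%) above it. The counts are not alike, since list genes stand by their brightest probe set and the array share includes dimmer ones. Under a stricter filter, at the 60th percentile, 1280 of 5101 probe sets were lower, and 12 of 31 list genes, members included. How much brightness adds to the difference was not tested. Under scaling to the hybridization controls 19 of the 39 list genes were higher and 0 lower, so the directions below belong to the deposited scaling.

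Heme synthesis genes were lower or not called. Besides Alas2, 4 of 7 were lower and 0 higher, with a median log2 change of -0.39. Alas1, the first enzyme in most tissues, averaged 4025 ± 418 in mdx and 6527 ± 431 in control (SD, n = 5 each), -0.68 on the log2 scale (SE 0.08, limma adjusted p = 5.1e-05), or -0.06 (limma adjusted p = 0.723) under scaling to the hybridization controls. Alad, Cpox and Fech, which act after it, were at -0.44, -0.44 and -0.39, and under that scaling at 0.16, 0.13 and 0.16, below its median. Relative to that median Alas1 was at -0.50. The groups overlapped for none of these 4 genes, which were named because they were called. Of all tested probe sets 25.1% did not overlap. Iron-sulphur cluster assembly, the other large use of iron in mitochondria, showed the same direction, with 5 of 7 lower, 0 higher and a median of -0.37. Fdx1, a ferredoxin, was at -0.68, the scaffold partner Isca1 at -0.60, the chaperone Hspa9 at -0.55 and the scaffold Iscu at -0.37. Under scaling to the hybridization controls Fdx1 stood at -0.06, Isca1 at 0.018, Hspa9 at 0.067 and Iscu at 0.19. Relative to the median there they were at -0.51, -0.43, -0.38 and -0.25. Myoglobin, Mb, the heme protein that stores oxygen in fibres, averaged 18549 ± 2641 in mdx and 28651 ± 5078 in control (SD, n = 5 each). Its log2 change was -0.61 (limma adjusted p = 0.00411), or 0.021 under that scaling, which is -0.42 relative to its median. The embryonic alpha-like globin Hba-x was not called, at -0.26.

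Of the genes that break down heme or clear it and hemoglobin, 2 of 3 tested besides Hmox1 were higher, Hp and Lrp1, and Blvra, which reduces the biliverdin made from heme, was not called, at 0.07, with a median log2 change of 0.43. Hp, haptoglobin, which binds free hemoglobin, averaged 4080 ± 1380 in mdx and 1023 ± 234 in control (SD, n = 5 each), 1.80 on the log2 scale (SE 0.21, limma adjusted p = 3.1e-05) that ranged from 1.66 to 2.39 over the other settings. Liver also makes Hp, and of 3 tested genes of the liver and plasma list 2 were higher, Hp itself and Ttr. Ttr averaged 492 ± 284 in mdx and 92.1 ± 290 in control (SD, n = 5 each; limma adjusted p = 0.0383). Its groups overlapped, and 4 control arrays and 1 mdx array were below the noise level. The remaining tested gene was not called, and 6 of the 7 untested ones were below the noise level on at least 9 arrays. Lrp1, the receptor that takes up heme bound to hemopexin among many other ligands, was at 0.43 (limma adjusted p = 0.000768).

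Iron control genes included 3 of 7 higher and 0 lower, with a median of 0.16. These were Hif1a, the oxygen- and iron-sensitive transcription factor, at 0.76 (limma adjusted p = 2.5e-05), Hfe, a partner of the transferrin receptors, at 0.50 (limma adjusted p = 0.00327), and Nfe2l2, which drives antioxidant genes, at 0.33 (limma adjusted p = 0.0332). The call of Nfe2l2 was lost, at limma adjusted p of 0.0531 to 0.0828, without any of 7 of the 10 arrays, and also with the replicate number as a block (0.0573) and after quantile normalization (0.0510). Among genes of iron uptake and transport other than members, 0 of 6 were called by limma and 2 had an unadjusted p under 0.05, the mitochondrial iron carrier Slc25a28 at -0.53 (limma adjusted p = 0.0507) and the second transferrin receptor Tfr2 at -0.31 (limma adjusted p = 0.117). Slc25a28 was called lower under some settings, and Tfr2 after quantile normalization (-0.42, limma adjusted p = 0.0311). Of the storage and carrier list, 0 of 2 others were called by limma and 0 had an unadjusted p under 0.05, Ncoa4, which delivers ferritin to the lysosome, at 0.17 and lactoferrin, Ltf, at -0.15. Scaled to the hybridization controls, Ncoa4 was called higher, at 0.75, which is 0.31 relative to the median there.

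**Figure D4:**
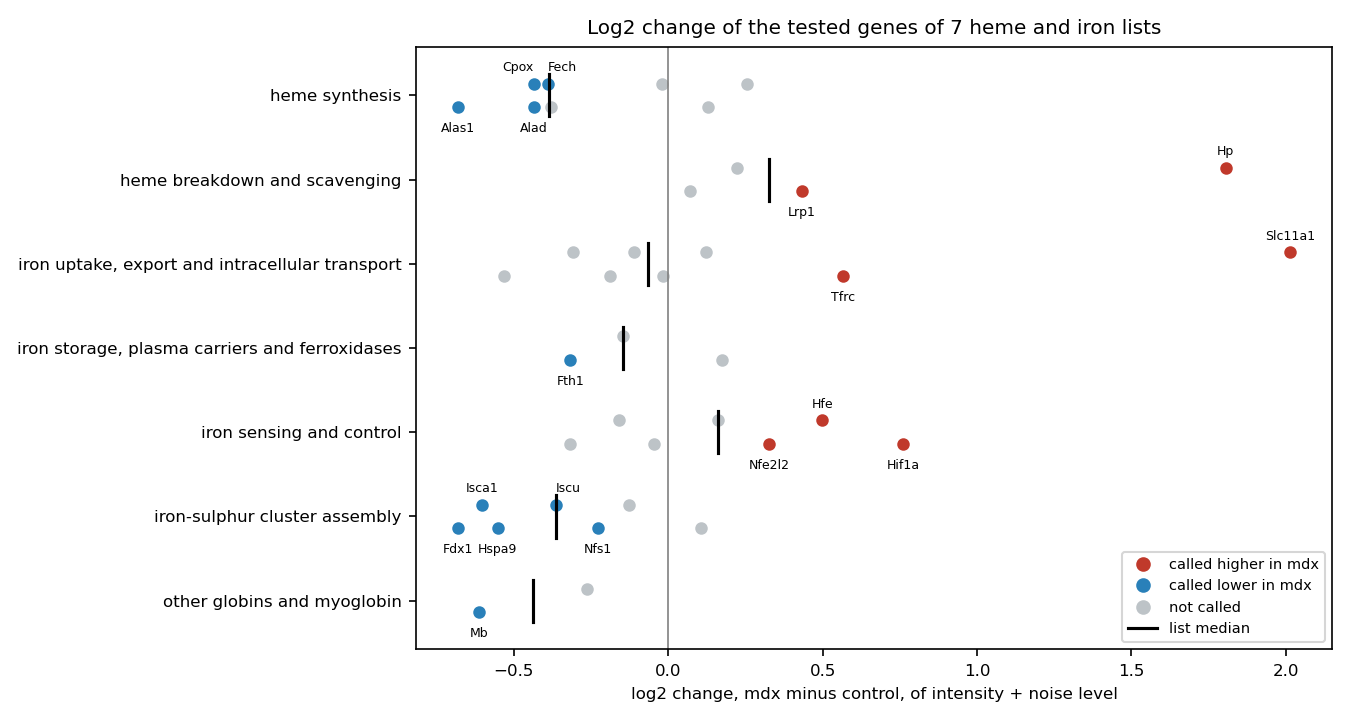
Log2 change, mdx minus control (x axis, log2 units of intensity + 156.8), of the tested genes of 7 lists (rows), red where called higher in mdx, blue where called lower and grey where not called, with the list median as a black bar. Heme synthesis and iron-sulphur assembly hold calls only to the left of 0 under the deposited scaling shown here, and heme breakdown and iron sensing only to the right. Scaled to the hybridization controls, 19 genes were higher and 0 lower.

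Among all named genes other than the members, those whose log2 values followed Hba-a1 most closely over the 10 arrays, after the group means were taken off, were Akirin2 (Pearson r = 0.97), Ciao2b (0.95), Hdlbp (0.93) and Pip4k2c (0.92). For Hmox1 they were Fancc (0.96), Tax1bp3 (0.95), Msrb1 (0.94) and Creb3l1 (0.94). All arrays share their scale, and these values describe the 10 arrays only.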

How the data were processed

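Intensities of 10 arrays (5 mdx, 5 control) were analysed. The authors' deposited intensity values are linear. Their background correction, scaling and software are not given in the sources used here. Between 19.7% and 23.8% of an array's values were negative, and trimmed means lay within 8.82% of their mean. The number of arrays limits the precision.

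Of 12488 probe sets, 66 array controls were left out. The platform annotation named 1 gene for 10833, several for 396 and none for 1193. Negative values became 0, the offset 156.8 (scaled median size of the 27483 negative values) was added and log2 computed here from the deposited values. Tested probe sets exceeded 134.3, the 40th percentile, on at least 5 arrays. The fit used limma 3.58.1 (R 4.3.3) with lmFit and trended eBayes, and p-values were adjusted by Benjamini and Hochberg's method over 7612 probe sets. Alternatives changed the offset, filter, scaling, variance trend and replicate block, and left out each array. In simulated data of 7612 probe sets, 67, 67 and 66 were given log2 changes of 0.5, 1 and 2. Of these, 31.3%, 83.6% and 98.5% were recovered, with 9 false calls. Far fewer probe sets were changed there than were called in the data (33.1%), so these shares do not carry over to the data.

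Members and lists were chosen with earlier results of these data known. Genes to name were, in each pathway or marker list, the up to 4 called with the smallest p, and up to 2 where fewer than 2 were called, besides every member probe set and the 4 genes most correlated with Hba-a1 and with Hmox1. Most names from marker lists other than red cells and liver are left out of the text. All other red cell list genes with a probe set, and Blvra, were named after their values were seen. The labels do not say whether the replicate numbers in the titles pair the arrays. Deviations of same-numbered arrays correlated at -0.13 to 0.05, and those of differently numbered arrays at -0.14 to 0.13. These values cannot decide whether the arrays were paired.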

Additional observations from a re-analysis of the deposited data

Results flagged for a closer look

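The brighter Tfrc probe set (103958_g_at) had its lowest mdx value, 2964, on replicate 1, far from the other mdx arrays by Dixon's test. Replicate 1 also had the lowest trimmed mean, and brought to the average trimmed mean of all arrays it stood at 3250. The highest control value, as deposited, was 3085. The 5' array control probe set for Tfrc had its highest mdx value, 238, on replicate 4, far from the rest by the same test. With 26 groups examined, 2 such values were found, and chance gives about 1 in 20. The causes were not tested.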

How the results depend on the processing

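The number of called member probe sets was 6, with 4 to 6 over the alternatives. Leaving out 1 array gave 4 to 6 member calls, 15 to 18 pathway calls (18 with all arrays) and 2241 to 2461 calls over the array (2520 with all). With the replicate number as a block there were 4 member calls, 16 pathway calls and 2212 calls in all, and the calls lost among members were those of Fth1. Of 169 pairs of a member probe set and an alternative, 151 kept direction and side of the threshold, 13 lost the call, 2 gained it and 3 turned sign. Slc11a1, the brighter Tfrc probe set and the probe set shared by the ferritin light chain kept their calls in all. Scaling to the hybridization controls gave 4 member calls, all higher, and turned the sign of Fth1 (0.29 and 0.32), Alad (0.16), Cpox (0.13), Fech (0.16), Slc25a28 (0.016), Tfr2 (0.054), Ltf (0.20), Isca1 (0.018), Hspa9 (0.067), Iscu (0.19), Mb (0.021), Hba-x (0.16) and Ank1 (0.24), none called. By construction it shifts all probe sets of an array together, and the median of all moved to 0.45. Quantile normalization turned 94794_at of Fth1 to 0.15. Leaving out any of 5 arrays ended the call of 161913_r_at of Fth1 (limma adjusted p 0.0514 to 0.0577), and any of 2 that of 94794_at (0.0508 to 0.0538). Why was not tested. Alas2 and the dimmer Tfrc probe set failed the stricter filter, and Cp has a fitted value only with no filter. Signal near the noise level limits Alas2, Cp and Slc11a1 in control.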

Other observations

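Of 4 tested Schwann cell markers, by their brightest probe sets, 1 was lower and 0 higher in mdx. The lower one was Mbp, a myelin protein, at -0.90 (limma adjusted p = 0.0441), and its other probe set was higher, at 0.60. The list had summed intensities of 3728 to 4873 in mdx and 3939 to 6747 in control. Of 10 tested endothelial markers, which bear on how much vessel a muscle piece holds, 1 was higher and 2 lower, with sums of 7402 to 8911 in mdx and 8540 to 10464 in control and a median log2 change of -0.14.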
